A study of Mus musculus with 4 samples.

Results

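The endothelial and blood barrier genes of the spinal cord described here are *Cldn5*, *Cdh5*, *Pecam1*, *Slc2a1*, *Slco1a4*, *Abcb1a*, *Flt1*, *Kdr*, *Tek* and *Ly6c1*. They are 10 of the 30222 named genes on the array. They were chosen as markers of capillary endothelium, with earlier results of these data known. Every probe whose gene name in the deposited array files equals one of these symbols was taken, which gave 14 of 39429 probes. The study asked which spinal genes follow the daily cycle of adrenal glucocorticoids in mice with neuropathic pain. Total RNA came from slices of lumbar cord, segments L4 to L5, taken from male mice of the outbred ICR stock 7 days after they underwent partial sciatic nerve ligation (PSL). In PSL a part of the right sciatic nerve is tied, and all mice had it. Adrenalectomized mice (ADX-PSL) had lost both adrenal glands before the ligation and drank saline, while the adrenal glands of sham-operated mice (Sham-PSL) were exposed and left in place. Mice were 5 to 6 weeks old, and each operation was sampled at ZT10, late in the light phase, and at ZT22, late in the dark phase (lights on at ZT0, off at ZT12). There was 1 array for each of the 4 conditions, so no condition has a replicate, and any gap between 2 arrays also carries whatever set the mice and the tissue pieces apart. The sources do not give the number of mice behind each RNA or the side of the cord.

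Endothelial cells line the vessels of the cord and, with pericytes and the endfeet of astrocytes, form the blood-spinal cord barrier. Tight junctions close the gaps between these cells, so that solutes must pass through them. Carriers then bring glucose, amino acids and organic anions across, and efflux pumps return drugs to the blood. VEGF receptors and the angiopoietin receptor Tie2 keep the endothelium alive and quiescent. Glucocorticoids are known to tighten cultured brain endothelium, and *Cldn5* is one of the genes that respond in such cultures.

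A level below is the value of a probe in the authors' table of intensities, on the linear scale and in arbitrary units, quantile-normalized over the 4 arrays. Probes differ in their binding, so a level is compared only with levels of the same probe. Where a gene has several probes, the one with the highest mean log2 level stands for it, unless another is named. A ratio between 2 arrays was counted when it reached 1.5 in either direction and the brighter of the 2 arrays carried the scanner's flag for a signal well above background; such a probe is called measured on that array. The spot error given with a log2 ratio comes from the scanner's own signal error, had a median of 0.20 for these genes and covers the spots alone, not the mice. All 10 genes were measured on all 4 arrays by their brightest probe, as were 13 of their 14 probes, so the labelled tissue does hold endothelial RNA in each condition. In bulk tissue, fewer endothelial cells and less RNA per cell cannot be told apart.

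Some features of whole arrays are given first, and their part in the values below was not tested. Of 8 red blood cell markers listed, 6 were measured, and their summed level was 18767 on the Sham-PSL ZT22 array against 89810.3 to 135912 on the other 3. *Myh4*, a myosin gene of fast skeletal muscle, had a level of 811 in Sham-PSL mice at ZT10 and was measured on no other array, and the 6 muscle markers measured, of 8 listed, passed the 1.5-fold limit there against Sham-PSL mice at ZT22. The bound for *Ckm* was 1.32-fold, and under normexp background correction, an alternative to the authors' values, *Ckm* (log2 ratio 0.44) and *Actn3* (0.48) stayed under the limit. Markers of meningeal fibroblasts, the collagen-producing cells of the membranes around the cord, were lower on the ADX-PSL arrays. Their summed level was 20187 and 18452 on the Sham-PSL arrays at ZT10 and ZT22 and 6778 and 7007 on the ADX-PSL arrays.

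The probes of 3 of the genes are shown first, since several probes read each of these genes and did not always give the same answer. Each probe has 60 bases, and its first 30 are printed 5′ to 3′ as in the deposited annotation, with positions in mm9 and all on the minus strand. The exon or untranslated part that a probe lies in was not determined here. No base is marked by capitals.
*Ly6c1*, brighter probe (chr15:74875495-74875554): tattatagtatcaccatccacacataagta
*Ly6c1*, dimmer probe (chr15:74877785-74877844): agcagttacctgccgcgcctctgatggatt
*Kdr*, brighter probe (chr5:76330395-76330454): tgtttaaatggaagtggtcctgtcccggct
*Kdr*, probe printed 10 times (chr5:76329309-76329368): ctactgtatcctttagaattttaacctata
*Flt1*, brightest probe (chr5:148373791-148373850): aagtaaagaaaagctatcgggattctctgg
*Flt1*, middle probe (chr5:148446872-148446931): ggagggtactgccgttcctgtgtggtattt
*Flt1*, dimmest probe (chr5:148465976-148466035): tccctatcccaactacacattcaatcttct
The accessions of the brighter *Ly6c1* probe belong to *Ly6c1* alone, while those of the dimmer one name a transcript of the near-identical *Ly6c2* as well. The accessions of the middle and the dimmest *Flt1* probes were not in the RefSeq table used.

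Most of the 10 genes varied little. In 6 of them, *Pecam1*, *Slc2a1*, *Abcb1a*, *Kdr*, *Flt1* and *Tek*, the highest array was less than 1.5 times the lowest on the brightest probe. In the other 4, *Cdh5*, *Cldn5*, *Slco1a4* and *Ly6c1*, it was at least 1.5 times the lowest, against 16.2% of the 25009 probes measured on every array. No gene reached 2-fold in any comparison, where 1.73% (time in Sham-PSL), 1.28% (time in ADX-PSL), 1.74% (operation at ZT10) and 1.74% (operation at ZT22) of these probes did. The arrays on which a gene was highest differed from gene to gene: ADX-PSL ZT22 for 4 genes, Sham-PSL ZT10 for 3, ADX-PSL ZT10 for 2 and Sham-PSL ZT22 for 1.

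**Figure D1:**
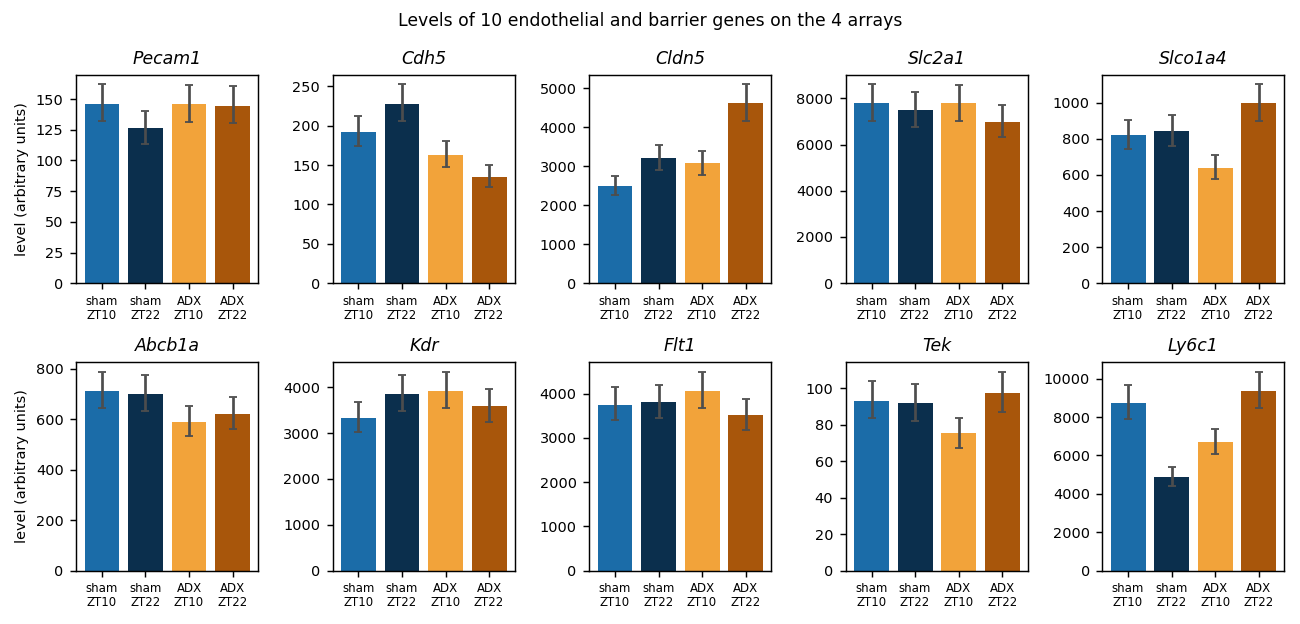
Level of each of the 10 genes (brightest probe, arbitrary units, linear axis from 0) on the 4 arrays, 1 bar per array; error bars are the scanner's spot error and not a spread between mice. *Slc2a1*, *Flt1* and *Pecam1* are nearly level over the 4 arrays, *Ly6c1* is lowest on Sham-PSL ZT22, *Cldn5* is highest on ADX-PSL ZT22 and *Cdh5* is lower on both ADX-PSL arrays.

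In the comparison of ZT10 with ZT22 in Sham-PSL mice, 1 of the 10 genes reached 1.5-fold, *Ly6c1*, and it was higher at ZT10. Of all probes measured on the brighter array, 10.6% reached 1.5-fold in this comparison, and 5.88% of those measured on every array did so. The median log2 ratio of the 10 genes was 0.00 (range -0.36 to 0.84), and that of all 25009 probes was 0.01. In ADX-PSL mice 1 gene reached 1.5-fold, *Slco1a4*, which was lower at ZT10, with a background of 9.06% and 4.66%. The median log2 ratio there was -0.03 (range -0.64 to 0.27). ADX-PSL mice differed from Sham-PSL mice by 1.5-fold in 0 of 10 genes at ZT10 (background 11.6% and 6.17%), with a median log2 ratio of -0.12. At ZT22, 2 genes reached it, *Cdh5*, lower in ADX-PSL, and *Ly6c1*, higher (background 10.2% and 6.16%), with a median of -0.00. The 4 comparisons share their arrays in pairs, so their counts are not independent of each other.

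**Figure D2:**
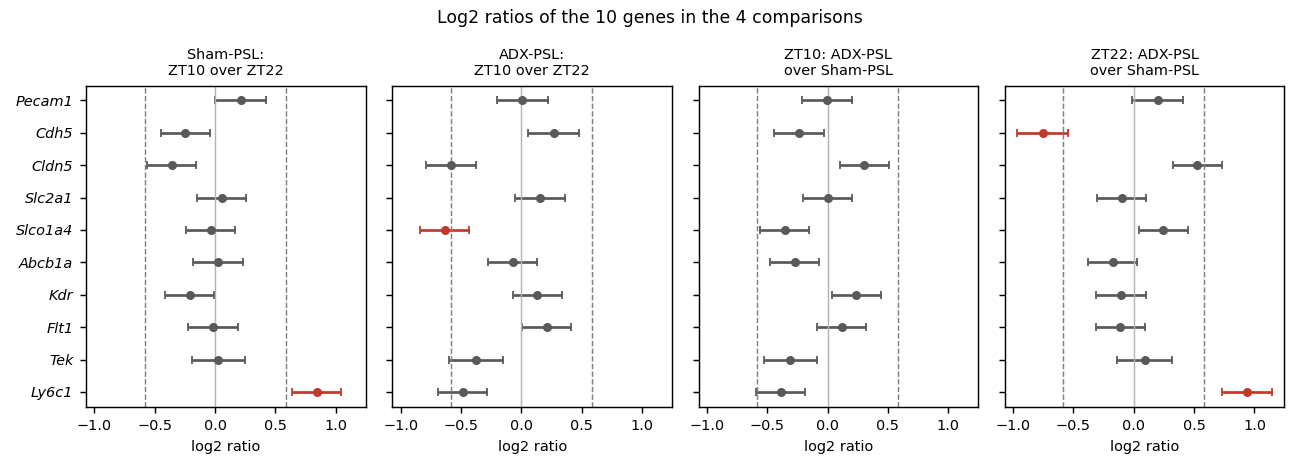
Log2 ratios of the 10 genes in the 4 comparisons, 1 panel each; bars are spot errors, dashed lines mark 1.5-fold, and red points reached it. The red points are *Ly6c1* in Sham-PSL (0.84), *Slco1a4* in ADX-PSL (-0.64), and *Cdh5* (-0.75) and *Ly6c1* (0.94) at ZT22.

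The design allows a single fit across arrays, an additive limma model of operation and time point with 1 residual degree of freedom, in which the gap between what time did in one operation and in the other serves as the error. Over the 28843 probes fitted, 0 had a Benjamini-Hochberg adjusted p under 0.05 for operation and 0 for time. Without adjustment, 1803 probes had a limma p under 0.05 for operation and 1420 for time. None of the 10 genes was among the former, and *Cldn5* alone was among the latter. The smallest adjusted p of the 10 genes in limma was 0.798 for operation and 0.932 for time.

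Of the junction and adhesion genes, *Cldn5* encodes claudin-5, the main sealing protein of endothelial tight junctions. Sham-PSL mice had a level of 2497 at ZT10 and 3203 at ZT22, and ADX-PSL mice one of 3082 at ZT10 and 4616 at ZT22. It was lower at ZT10 than at ZT22 in both operations, with log2 ratios of -0.36 (spot error 0.20) in Sham-PSL and -0.58 (spot error 0.20) in ADX-PSL, just under the limit of 1.5-fold. ADX-PSL exceeded Sham-PSL by 0.30 on the log2 scale at ZT10 and by 0.53 at ZT22, and the levels of Sham-PSL ZT22 and ADX-PSL ZT10 lay within the spot error of each other. In the additive fit the time effect (ZT10 minus ZT22) was -0.47 ± 0.13 (SE) in log2, with a limma p of 0.041 and an adjusted p of 0.932. The operation effect (ADX-PSL minus Sham-PSL) was 0.42 ± 0.13 (SE), with a limma p of 0.055 and an adjusted p of 0.798.

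*Cdh5* encodes VE-cadherin, which joins endothelial cells at adherens junctions. Its level was 192 and 228 on the Sham-PSL arrays at ZT10 and ZT22, and 163 and 135 on the ADX-PSL arrays at ZT10 and ZT22. Both ADX-PSL arrays lay below both Sham-PSL arrays. The log2 ratio of ADX-PSL to Sham-PSL was -0.24 (spot error 0.21) at ZT10 and -0.75 (spot error 0.21) at ZT22, a 1.69-fold lower level at ZT22. In the fit the operation effect was -0.50 ± 0.19 (SE), with a limma p of 0.083 and an adjusted p of 0.809. *Pecam1*, which encodes the adhesion molecule CD31 of endothelial cells and platelets, had levels of 146, 126, 146 and 145 in the order Sham-PSL ZT10, Sham-PSL ZT22, ADX-PSL ZT10 and ADX-PSL ZT22. All its log2 ratios were between -0.01 and 0.21, within or close to the spot error of 0.21.

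The transport genes include the gene with the least variation. *Slc2a1*, which encodes the glucose carrier GLUT1, stood at 7778 (ZT10) and 7486 (ZT22) in Sham-PSL mice and at 7776 (ZT10) and 6986 (ZT22) in ADX-PSL mice, a 1.11-fold range. *Abcb1a* encodes the efflux pump P-glycoprotein. Its level was 712 (ZT10) and 700 (ZT22) in Sham-PSL mice and 589 (ZT10) and 620 (ZT22) in ADX-PSL mice, so that both ADX-PSL arrays were lower, by 0.27 on the log2 scale at ZT10 and by 0.18 at ZT22 (spot error 0.20 each). The limma adjusted p of its operation effect was 0.852. *Slco1a4* encodes a carrier of organic anions at the barrier. Sham-PSL mice had levels of 820 (ZT10) and 841 (ZT22), and ADX-PSL mice had 641 (ZT10) and 996 (ZT22). The ADX-PSL arrays were thus the lowest and the highest, with a 1.55-fold lower level at ZT10 (log2 ratio -0.64, spot error 0.20), whereas the Sham-PSL ratio was -0.04. The difference between these time effects was 0.60 (spot error 0.29), and without replicate arrays it was not tested. The summed level of the mural cell markers, those of pericytes and smooth muscle around vessels, was also lowest in ADX-PSL at ZT10, at 8068 against 10184 to 11453 on the other 3 arrays. *Vtn*, the largest term of this sum, read 3798 (ZT10) and 3825 (ZT22) in Sham-PSL mice but 1874 (ZT10) and 2879 (ZT22) in ADX-PSL mice. Single mural genes differed: 6 of the 15 measured were lowest on the ADX-PSL ZT10 array, and *Abcc9* was highest there (344). Between the times in ADX-PSL, 2 of 15 were higher and 2 lower at ZT10, with a median log2 ratio of -0.06. The share of all probes in either direction was 9.06%. In ADX-PSL against Sham-PSL at ZT10, 5 of 15 were lower and 0 higher, against 11.6% of all probes. The part of mural cells in the *Slco1a4* value was not tested. The low ADX-PSL ZT10 level was not particular to *Slco1a4*. Of 20 other endothelial identity genes, described below, 12 were lowest on that array, with a median log2 ratio of -0.28 between the times in ADX-PSL. The same array was lowest for 7 of 9 basement membrane genes. Of 18 other transport genes 5 were lowest there, with 5, 5 and 3 lowest on ADX-PSL ZT22, Sham-PSL ZT10 and Sham-PSL ZT22. The share of all probes lowest on a given array was not computed, so these counts and that of the mural genes have no background.

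*Cdh5* and *Abcb1a* were the genes of the 10 for which both ADX-PSL arrays lay below both Sham-PSL arrays, which is 2 of 10 against 16.1% of all probes measured on every array. None of the 10 was higher on both, against 18.9% of those probes. The meningeal fibroblast markers moved the same way, 12 of 13 being lower on both ADX-PSL arrays, among them *Col1a1* (1809 and 1574 in Sham-PSL, 336 and 318 in ADX-PSL) and *Ogn* (448 and 471 in Sham-PSL, 51.9 and 44.1 in ADX-PSL). The part of the meninges in the values of *Cdh5* and *Abcb1a* was not tested.

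The receptors gave near-level values on their brightest probes. *Flt1* (VEGF receptor 1) had levels of 3752, 3800, 4066 and 3517 in the order of arrays used above, and *Kdr* (VEGF receptor 2) had levels of 3332, 3857, 3928 and 3585. All log2 ratios of these probes lay between -0.21 and 0.24. *Tek*, which encodes the angiopoietin receptor Tie2, was dim, with levels of 93.1, 91.6, 75.2 and 97.4. It was lowest in ADX-PSL at ZT10, where its log2 ratio to ADX-PSL at ZT22 was -0.37 (spot error 0.23).

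The other probes of the receptors did not all follow. The *Kdr* probe printed 10 times read 361 (ZT10) and 580 (ZT22) in Sham-PSL mice and 591 (ZT10) and 520 (ZT22) in ADX-PSL mice. The SD of the log2 signal between its 10 spots was at most 0.07 on any array, so the low value of Sham-PSL at ZT10 was not that of a single spot. In Sham-PSL mice this probe was 1.61-fold lower at ZT10, and at ZT10 it was 1.64-fold higher in ADX-PSL than in Sham-PSL. The brighter *Kdr* probe had the same array lowest, with log2 ratios of -0.21 and 0.24 in these comparisons against -0.68 and 0.71. The middle *Flt1* probe had levels of 1093, 838, 1076 and 1046 and reached 1.5-fold in no comparison. The dimmest *Flt1* probe was measured on the ADX-PSL ZT22 array alone, with a level of 52.6. Set against the lowest level of any measured probe on the dimmer array, it was at least 2.86-fold higher there than in Sham-PSL at ZT22 and at least 4.10-fold higher than in ADX-PSL at ZT10, while the other *Flt1* probes were not higher on that array by 1.5-fold.

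*Ly6c1* encodes a GPI-anchored surface protein that marks brain and cord endothelium in mice and, with its relative *Ly6c2*, a class of monocytes. Its brighter probe read 8761 (ZT10) and 4893 (ZT22) in Sham-PSL mice and 6693 (ZT10) and 9379 (ZT22) in ADX-PSL mice. The Sham-PSL ZT22 array was the lowest and ADX-PSL ZT22 the highest. In Sham-PSL mice the level at ZT10 was 1.79 times that at ZT22 (log2 ratio 0.84, spot error 0.20), and the ADX-PSL ratio had the opposite sign (-0.49, spot error 0.20). At ZT22 it was 1.92-fold higher in ADX-PSL than in Sham-PSL (log2 ratio 0.94), and at ZT10 the ratio was -0.39. The dimmer probe, with levels of 1712, 953, 1448 and 1665, had log2 ratios of 0.84 in Sham-PSL and 0.80 at ZT22, and -0.20 in ADX-PSL. Both probes were therefore lowest on the Sham-PSL ZT22 array. In the additive fit the operation effect of the brighter probe was 0.28 ± 0.41 (SE), with an adjusted p of 0.961 in limma, and the mean operation difference was -0.15 without the Sham-PSL ZT22 array.

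Other genes of the *Ly6* cluster on chromosome 15, chosen after the values of *Ly6c1* were seen, were read beside it. *Ly6a* (Sca-1, also an endothelial gene), 49.9 kb away in mm9, had levels of 1782, 780, 1091 and 1532, with log2 ratios of 1.19 for time in Sham-PSL and 0.97 for operation at ZT22. *Ly6e*, in the same cluster, had levels between 4741 and 4978 and no ratio beyond 0.07 in size. *Ly6i*, a dim gene, had levels of 34.2, 20.5, 29.2 and 32.5. *Ly6a* and *Ly6i* thus had the same lowest array as *Ly6c1*, and *Ly6e* did not vary by more than the spot error. Others had another course: *Ly6g* had levels of 33.8, 33.9, 54.0 and 24.8, highest in ADX-PSL at ZT10, and *Ly6k* had 54.1, 34.7, 26.2 and 27.2, lowest there.

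The red blood cell markers were also lowest in Sham-PSL at ZT22. *Hba-a1*, an alpha globin gene, had levels of 31430.4, 3725, 21626 and 20761 in the order of arrays used above, and *Alas2*, the erythroid enzyme of heme synthesis, had 419.5, 50.8, 277 and 265. Of the 6 markers measured, 6 passed 1.5-fold with the higher level at ZT10 in Sham-PSL mice (5 under normexp, with *Slc4a1* at 0.51) and 5 with the higher level in ADX-PSL mice at ZT22, with median log2 ratios of 3.05 and 2.43. *Epb4.2* was measured on no array. *Hbb-bt* has no probe of that name, but the RefSeq symbol of the probe named *Hbb-b1* is *Hbb-bt*. The part of blood in the *Ly6c1* value was not tested. The monocyte and leukocyte markers differed among themselves. The summed level of the 8 measured was 2723 on the Sham-PSL ZT22 array, the highest of the 4 (1589 to 2245 on the others), and *Cd52* gave 1507 of it. *S100a8* and *S100a9*, genes of neutrophils and monocytes, had the same signs as *Ly6c1* in all 4 comparisons. *S100a9* had levels of 394, 213, 122 and 303, with log2 ratios of 0.88 for time in Sham-PSL, -1.31 for time in ADX-PSL, -1.69 for operation at ZT10 and 0.51 at ZT22. Their lowest array was ADX-PSL ZT10, and their part in the *Ly6c1* value was not tested. The monocyte receptor gene *Ccr2* was measured on no array, and *Ly6c2* has no probe of that name.

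**Figure D3:**
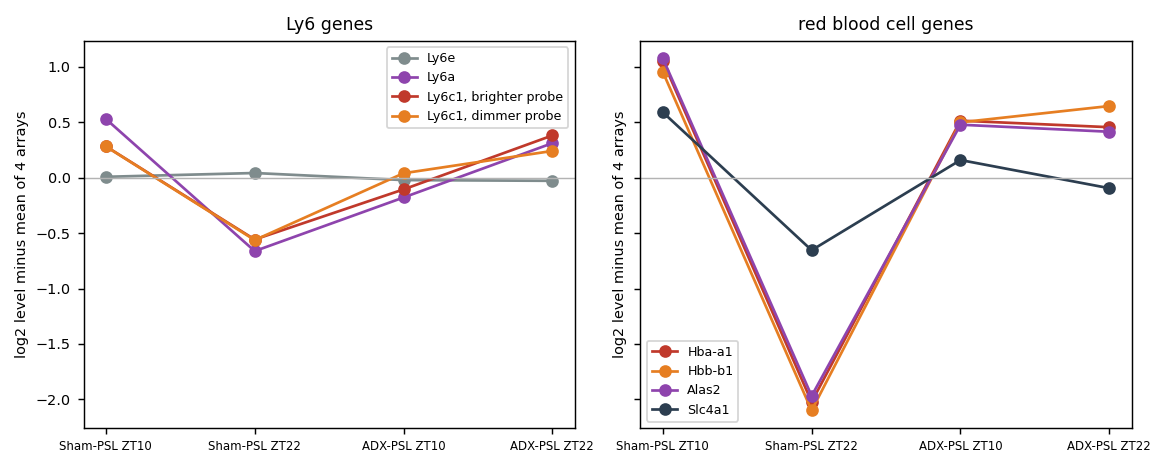
Log2 level minus the mean of the 4 arrays for *Ly6* genes (left) and red blood cell genes (right), 1 point per array and lines joining the points of a probe. Both *Ly6c1* probes, *Ly6a* and the 4 red blood cell genes are lowest on the Sham-PSL ZT22 array, and *Ly6e* stays near 0.

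For the 4 genes that varied by 1.5-fold or more, the genes with the most similar course were sought among 16444 named genes measured on every array, by the root mean square distance of centred log2 levels. With only 4 arrays such a likeness is a description. The nearest to *Cldn5* were *D130019J16Rik*, *Chi3l1* and *Dnajc3* (distances of 0.04 to 0.06). The nearest to *Slco1a4* were *Yes1*, *LOC541456* and *Rab32* (0.01 to 0.03), and the nearest to *Cdh5* were *LOC100502708*, *Mrap* and *Myl3* (0.03 to 0.05). The nearest to *Ly6c1* were *Hbq1a*, a globin gene, *E130118H10Rik* and *Otop2* (0.04 to 0.07). None of the 10 genes was among the nearest of another.

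Other endothelial genes were read from lists, each by its brightest probe. All 20 other endothelial identity genes were measured. None of them reached 1.5-fold between the times in Sham-PSL, and 2 of 20 were lower at ZT10 in ADX-PSL, *Sox7* and *Ecscr* (against 9.06% of all probes in either direction). In ADX-PSL against Sham-PSL, 3 were lower at ZT10, and 2 were lower and 1 higher (*Sox17*, an arterial transcription factor) at ZT22. These are 3 of 20 at each time, against 11.6% and 10.2% of all probes. *Vwf*, the von Willebrand factor stored mainly in larger vessels, read 1633 (ZT10) and 1651 (ZT22) in Sham-PSL mice and 954 (ZT10) and 719 (ZT22) in ADX-PSL mice, which is 1.71-fold and 2.30-fold lower. *Clec14a*, a lectin of endothelium, was dim and also lower on both ADX-PSL arrays (43.3 and 38.6 against 21.98 and 24.3). *Ecscr*, an endothelial surface protein, was low on the ADX-PSL ZT10 array alone, at 62.9 against 159.5 to 208 elsewhere. *Vwf* and *Clec14a* thus had the same direction as *Cdh5*, but the list was mixed. For 5 of the 20 genes both ADX-PSL levels lay below both Sham-PSL levels, against 16.1% of probes measured on every array. *Erg*, measured on 2 arrays, is among these 5. For 2 of 20, *Sox17* and *Sox18*, both lay above, against 18.9%. *Sox18* stayed under the limit, with log2 ratios of 0.46 at ZT10 and 0.49 at ZT22. The median log2 ratio of the 20 genes was -0.20 at ZT10 and -0.06 at ZT22. Under normexp, *Sox7* (log2 ratio -0.57 for time in ADX-PSL), *Sox17* (0.46 at ZT22) and *Clec14a* (-0.36 at ZT10 and -0.19 at ZT22) fell under 1.5-fold.

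Of 11 other tight junction genes, all measured, *Cldn3*, a claudin near background here, was at least 1.504-fold lower in ADX-PSL at ZT22 (level 20.4, not well above background) than in Sham-PSL (33.4), with a log2 ratio of -0.27 under normexp. The other 10, *Ocln* (occludin) and *Tjp1* (ZO-1, a scaffold of the junction) among them, reached 1.5-fold in no comparison.

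Of the 18 other transport genes, *Mfsd2a* alone passed 1.5-fold between the times in both operations. *Mfsd2a*, the carrier of lysophosphatidylcholine and docosahexaenoic acid that limits transcytosis at the barrier, read 4047 (ZT10) and 2082 (ZT22) in Sham-PSL mice and 4603 (ZT10) and 2507 (ZT22) in ADX-PSL mice. It was 1.94-fold higher at ZT10 in Sham-PSL and 1.84-fold higher in ADX-PSL. In limma its time effect was 0.92 ± 0.12 (SE) in log2, with an adjusted p of 0.932. None of the 10 genes had this course. *Slc22a8* (the organic anion carrier OAT3) read 174 (ZT10) and 240 (ZT22) in Sham-PSL mice and 116 (ZT10) and 105 (ZT22) in ADX-PSL mice, which is 2.28-fold lower at ZT22. Its 1.505-fold ratio at ZT10 lay at the limit and fell under it in 4 of 5 other scalings. Both its ADX-PSL levels lay below both Sham-PSL levels, as for 12 of 13 meningeal fibroblast markers. The part of the meninges in the *Slc22a8* value was not tested. *Abcb1b*, the paralogue of *Abcb1a*, was 1.53-fold lower in ADX-PSL at ZT22, and its log2 ratio was -0.53 under normexp and -0.52 without normalization. *Slc38a5*, an amino acid carrier, was lower at ZT10 in both operations, 1.72-fold in ADX-PSL (974 against 1672) and 1.48-fold, under the limit, in Sham-PSL (1350 against 1996). The median log2 ratio of the 18 genes was between -0.09 and 0.00 in each of the 4 comparisons.

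Of the 11 VEGF and angiopoietin genes besides the receptors above, *Angpt2*, a ligand of Tie2 that destabilizes vessels, was lower on both ADX-PSL arrays (52.9 and 27.3 against 86.8 and 85.3 in Sham-PSL at ZT10 and ZT22). That is 1.64-fold lower at ZT10 and 3.12-fold lower at ZT22. *Flt4*, the receptor of lymphatic endothelium, was measured on the Sham-PSL ZT10 array alone, and its level there was at least 1.22-fold that of ADX-PSL at ZT10. Of 14 genes of the Wnt pathway that maintains the barrier, *Apcdd1* (1.79-fold) and *Fzd4* (1.54-fold) were lower in ADX-PSL at ZT10 and none reached 1.5-fold elsewhere. That is 2 of 14 at ZT10, against 11.6% of all probes in either direction. Of 9 basement membrane genes, 6 had both ADX-PSL arrays below both Sham-PSL arrays, against 16.1% of all probes. The meningeal fibroblast markers, 12 of 13 of which did the same, mark cells that also make basement membrane, and their part in these values was not tested. *Nid2* (nidogen-2) was 1.97-fold and 1.84-fold lower at ZT10 and ZT22, and *Lama4* (a laminin chain of endothelial basement membrane) was 1.82-fold lower at ZT10. Of 8 genes of fenestrated, venous or inflamed endothelium 6 were measured, and the selectin genes *Sele* and *Selp*, markers of inflamed endothelium, were measured on no array. *Icam1*, an adhesion gene that inflamed endothelium raises, was measured on the Sham-PSL ZT22 array alone (24.6), at least 1.11-fold the level of ADX-PSL at ZT22. *Aplnr*, a venous receptor gene, was 1.67-fold lower at ZT10 in ADX-PSL (337 against 563) and 1.496-fold lower in Sham-PSL (342 against 512). *Lrg1*, a venous gene, was 1.81-fold and 1.53-fold lower in ADX-PSL at ZT10 and ZT22. Under normexp the log2 ratios at ZT10 of *Angpt2* (-0.33), *Flt4* (-0.16), *Fzd4* (-0.51), *Nid2* (-0.50) and *Lrg1* (-0.57) were under the limit, as were those at ZT22 of *Nid2* (-0.49), *Lrg1* (-0.41) and *Icam1* (-0.32). In the additive limma fit 0 genes of these lists had an adjusted p under 0.05.

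**Figure D4:**
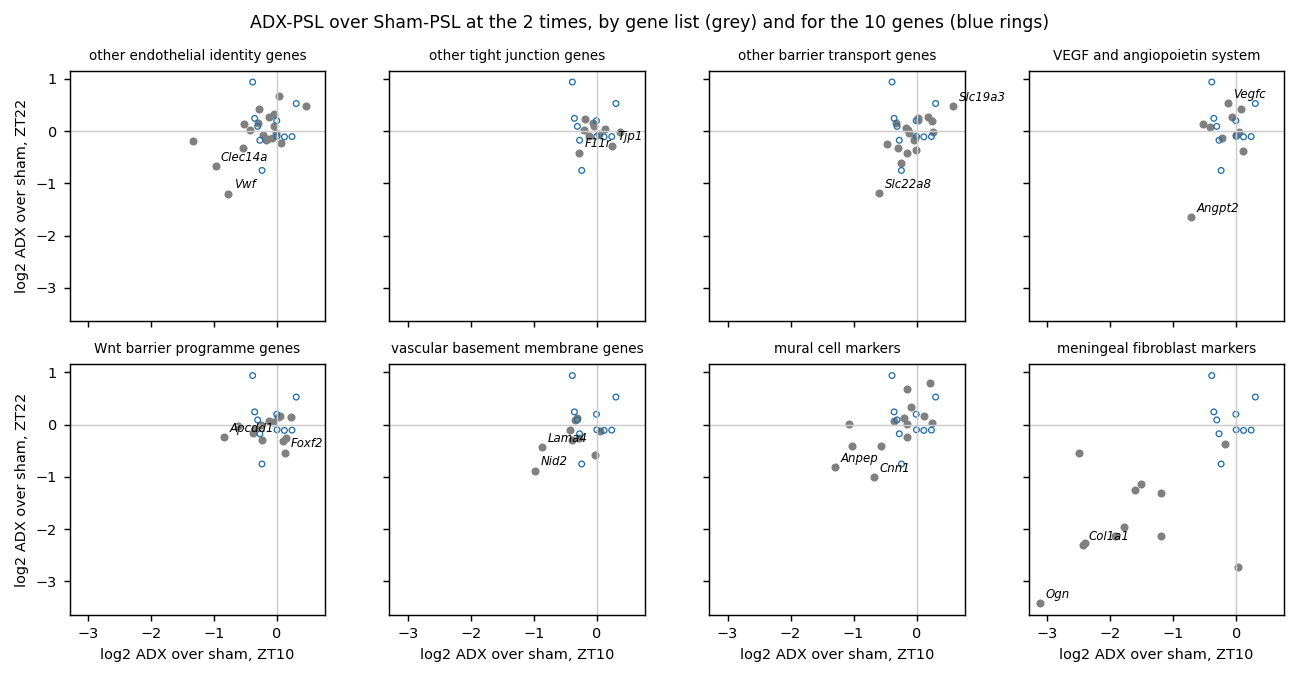
Log2 ratio of ADX-PSL to Sham-PSL at ZT10 (horizontal) and ZT22 (vertical) for the genes of 8 lists (grey, well above background on all 4 arrays) with the 10 genes as blue rings in each panel; the 2 genes of each list with the largest summed size of both ratios are named. Most meningeal fibroblast genes lie far to the lower left. Of this list, *Pdgfra* (-0.18 at ZT10, -0.38 at ZT22) lies nearer to 0, and *Slc22a6* is low at ZT22 alone (0.03 at ZT10, -2.73 at ZT22). *Vwf*, *Slc22a8*, *Angpt2* and *Nid2* lie to the lower left of their lists. Of the 10 genes, *Ly6c1* (0.94), *Cdh5* (-0.75) and *Cldn5* (0.53) lie farthest from 0 at ZT22.

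The bases before the transcription start were searched for 3 motifs on both strands, in RefSeq promoters of GRCm38.p6 with 250 bases each, which were found for 8 of the 10 genes (9 starts, 2 of them of *Ly6c1* and overlapping). The glucocorticoid receptor hexamer AGAACA was in 1 of 9, that of *Tek*, against 16.1% of all 32851 promoters. The ETS core AGGAAG was in 4 of 9, those of *Abcb1a*, *Flt1*, *Slco1a4* and 1 start of *Ly6c1*, against 29.5% of all. The E-box CACGTG bound by clock factors was in 0 of 9, against 6.02% of all. A match or its absence in these windows says nothing of binding.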

How the data were processed

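The members and gene lists were chosen with earlier results of these data known. Per the file headers, the authors' Feature Extraction 10.7.1.1 (9.5.1.1 in the submitters' processing notes) gave each spot a background-corrected processed signal intensity, its error and flags. The authors also deposited a table of linear intensities, 1 per probe, quantile-normalized over the 4 arrays. Its sorted values were the same on all arrays within 0.00052 log2, its median was 105 on each, and each column correlated with its own scanner signal (r of at least 0.999). Each array held 44397 spots, 1377 of them controls, and between 25655 (65.1%) and 27649 (70.1%) of 39429 probes were well above background. No spot was saturated. The 4 arrays lay on 1 slide, so no slide block was fitted. The number of arrays limits the precision.

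Ratios were taken of table levels. A probe was well above background where more than 0.5 of its spots were, and each gene was represented by its probe of highest mean log2 level. Lower bounds used the lowest level well above background on the dimmer array (12.8 to 22.2). The additive fit used limma 3.58.1 in R 4.3.3 on every probe that at least 1 array measured. Other steps used Python 3.11.15, pandas 2.3.3 and numpy 2.4.6, and the steps were tested on simulated data. Named besides the 10 genes are genes of the lists that passed 1.5-fold (at most the 4 largest of a list), defining markers of other cells, and the 3 nearest genes by likeness. Some genes of the red blood cell and tight junction lists are not reported here. The *Ly6* genes besides *Ly6c1* were added after values were seen. Probe accessions gave the same RefSeq symbol for 12 of the 14 probes. Alternatives were the scanner signal with quantile normalization over 4 arrays or within pairs, no normalization, a 75th percentile shift, normexp background correction (offset 50), the mean over a gene's probes, a 2-fold limit, other filters and an intensity trend in the fit, and each array left out.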

Additional observations from a re-analysis of the deposited data

Results flagged for a closer look

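The time difference of *Ly6c1* had opposite signs in the 2 operations, each beyond 2 spot errors. Sham-PSL mice had a log2 ratio (ZT10 over ZT22) of 0.84 and ADX-PSL mice one of -0.49, a difference of 1.33 (spot error 0.29) on the brighter probe and of 1.05 on the dimmer one. With 1 array in each condition, this difference was not tested.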

How the results depend on the processing

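Over 6 alternatives, 235 of 240 log2 ratios of the 10 genes moved by less than their spot error and none of those past 1.5-fold turned its direction. The 5 that moved by more were of *Flt1* and *Kdr* under the mean over a gene's probes. The median log2 ratios of the 10 genes moved by less than the spot error throughout. At a 2-fold limit 0 genes passed in any comparison, where 433, 320, 435 and 434 of all 25009 probes did (1.73%, 1.28%, 1.74% and 1.74% in the order of the report). For ZT10 over ZT22 in ADX-PSL, 2 genes passed with the 75th percentile shift (*Cldn5*, *Slco1a4*), 3 without normalization (also *Ly6c1*), 1 under normexp (*Cldn5* in place of *Slco1a4*, at -0.58) and 2 with the mean over probes (*Slco1a4*, *Flt1*). The share of all probes past 1.5-fold was computed for the authors' values alone. Without normalization the median log2 ratio of all probes in this comparison was -0.10. For ADX-PSL over Sham-PSL at ZT22, 1 passed under normexp, *Ly6c1*, with *Cdh5* at -0.56. Over the alternatives the log2 ratio of *Cldn5* in this comparison reached up to 0.64, past 1.5-fold. That of *Flt1* reached 1.27 with the mean over a gene's probes, which includes its dimmest probe. The count of genes higher on both ADX-PSL arrays was 1 without normalization (*Kdr*) and 1 under normexp (*Pecam1*). In the authors' values 18.9% of probes measured on every array were higher on both. That share was not computed under the alternatives, so these counts have no background. Without normalization the median of all probes shifted by up to 0.12 on the log2 scale. In the limma fit, probes with an adjusted p under 0.05 for operation and time numbered 10 and 9 under normexp, 13 and 11 over probes well above background on all 4 arrays, and 39 and 14 with an intensity trend, with 0 of the 10 genes among them. The cause was not tested. Of 114 calls of list genes, 40 fell under 1.5-fold under normexp, and 2 or 3 under each of the other 4 scalings; all kept their sign. With 1 array left out in turn, the mean operation difference, a value without a test, stayed between -0.63 and -0.36 for *Cdh5*, -0.26 and -0.19 for *Abcb1a*, and 0.12 (without ADX-PSL ZT22) and 0.71 (without ADX-PSL ZT10) for *Cldn5*. That of *Ly6c1* ran from -0.15 (without Sham-PSL ZT22) to 0.70 (without Sham-PSL ZT10), and that of *Slco1a4* from -0.37 (without ADX-PSL ZT22) to 0.26 (without ADX-PSL ZT10).

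No paired analysis was possible because each condition has 1 array and no replicate numbers pair them. Time point is a term of the additive fit.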
